A study of Mus musculus with 8 samples.

Results

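The primary cilium genes of mouse embryonic fibroblasts (MEFs) were followed through 72 h of 5-aza-2′-deoxycytidine (5-aza-dC), an inhibitor of DNA methyltransferases. The genes were all those on the array whose symbol or older synonym was Ift or Bbs followed by a number, together with a list of 41 named cilium genes. This gave 57 genes of the 16590 on the array, 23 by family name and 34 by listed name. The list was drawn up with results of the same comparison known, so all fold changes and calls of these genes are given as a description and support nothing by themselves. The listed names Dync2h1, Ttc21b, Hspb11, Arl6, Arl13b, Tctn1 and Mks1 had no probe paired with them and were not analysed here.

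All cells were Trp53-/- Dnmt1+/+ MEFs of unknown background strain, so controls and treated cells both lack p53. The control group received DMSO and the treated group 5-aza-dC at 1 µM per the labels. Each group held 2 biological replicates, each hybridised to 2 technical arrays, which made 8 arrays in all. The study describes control and treated cells as one starting population, and the sources used here do not say whether the replicates were separate cultures, so p-values measure the spread between these samples, which may be technical.

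The primary cilium is a single microtubule-based projection that most fibroblasts build when they leave the cell cycle, and it is a site of Hedgehog and growth factor signalling. Its parts are carried along the axoneme by intraflagellar transport (IFT). Trains of the IFT-A and IFT-B complexes move to the tip on kinesin-2 motors and return on dynein-2. The BBSome, a complex of Bardet-Biedl syndrome proteins, carries membrane proteins on these trains. The transition zone at the ciliary base, anchored to the basal body, decides which proteins enter. Many ciliary genes in animals carry an X-box, the motif bound by RFX transcription factors such as Rfx3, and Foxj1 drives the genes of motile cilia through forkhead motifs.

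The promoters of these genes are shown first, since an X-box motif was more frequent in them than in the promoters of other genes and was no part of how they were chosen. Promoter sequences were those of RefSeq for build GRCm38.p6, from 250 bases before the transcription start to 50 after it, with the start counted as base 1. Of the 57 genes 50 had an entry (Dync2li1, Foxj1, Ift122, Ift80, Ift81, Tmem67 and Ttc30b had none). On either strand, 3 motifs were searched: the X-box core GTTGCC, the forkhead motif TGTTTAC, and the X-box pair, GTTNCC followed after 0 to 3 bases by GGNAAC, which overlaps the core where its N is G. The pair was found in 6 genes, Ahi1, Bbs7, Lztfl1, Tctn3 and Ttc26 among them. Of the matches upstream of the start, 4 are printed with the pair in capitals and 12 bases on each side, 5′ to 3′ on the strand of the gene.
Tctn3 (chr19:40612347-40612383, minus strand, motif from base -140): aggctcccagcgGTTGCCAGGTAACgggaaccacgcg
Ttc26 (chr6:38381479-38381516, plus strand, motif from base -33): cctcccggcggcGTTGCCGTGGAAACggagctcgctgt
Bbs7 (chr3:36613485-36613522, minus strand, motif from base -121): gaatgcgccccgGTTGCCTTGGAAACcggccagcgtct
Lztfl1 (chr9:123717763-123717801, minus strand, motif from base -164): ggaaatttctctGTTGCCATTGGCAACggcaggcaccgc
In each of these 4 windows the pair opens with the core itself, and the 2 arms are 1, 2 or 3 bases apart.

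The core alone was more widespread. The windows below were taken from subunits of the IFT complexes, a motor and the transition zone to show the range of its positions. Capitals mark the core, which reads GGCAAC where it lies on the opposite strand.
Ift172 (chr5:31291097-31291126, minus strand, motif from base 1): tgtcgcactcacGTTGCCtgtgcgtcagcg
Ift88 (chr14:57424080-57424109, plus strand, motif from base 22): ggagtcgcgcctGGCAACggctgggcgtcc
Ift27 (chr15:78174073-78174102, minus strand, motif from base -9): gggttgatgatgGTTGCCaggagcctgttt
Ift140 (chr17:25015965-25015994, plus strand, motif from base -109): gcgtgttgtgacGGCAACctcgcgcccttg
B9d1 (chr11:61505152-61505181, plus strand, motif from base 21): cgagagcctcctGGCAACagcgcgcggcct
Tctn2 (chr5:124598750-124598779, plus strand, motif from base 14): cattgattggtgGTTGCCatggctgcaggc
Kif3a (chr11:53567259-53567288, plus strand, motif from base -98): caccccgcaggcGTTGCCccagtctagcgt
The core occurred in 21 of the 50 promoters (42.0%), against 1130 of 7720 genes tested on the arrays that had a promoter entry (14.6%) and 14.1% of the 27025 genes in the promoter table. The pair occurred in 12% of the 50 genes, 1.10% of the genes tested and 0.936% of the promoter table. The forkhead motif was found in 0 of the 50 promoters, in 3.03% of the genes tested and in 4.05% of the promoter table. No match says only that these letters were not in the window, and a match is not a binding site. CpG dinucleotides, the substrate of DNA methyltransferases, were about as dense in these promoters as in those of all genes tested, with a median observed over expected ratio of 0.80 against 0.791 and a median GC content of 59.7% against 62.0%.

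The core was found both in cilium genes that changed on the arrays and in those that did not. It was present in 12 of 29 cilium genes that fell after 5-aza-dC (41.4%), in 6 of 13 that were tested and did not pass (46.2%) and in 3 of 8 that were not detected on any array (37.5%). Genes that fell and carried a core included Ift172, Ift88, Ift140, B9d1 and Tctn2, while Kif3a, Bbs7, Ahi1, Cep164, Rfx3 and Traf3ip1 carried one and did not pass. Among all genes tested, the core was in 16.2% of those called lower, 14.4% of those called higher and 14.0% of those not called. The median CpG ratio was 0.717 in the cilium genes that fell, 0.815 in those that did not pass and 0.86 in those not detected. For all genes tested it was 0.736 in those called lower, 0.815 in those called higher and 0.804 in those not called. These CpG differences were not tested.

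**Figure D1:**
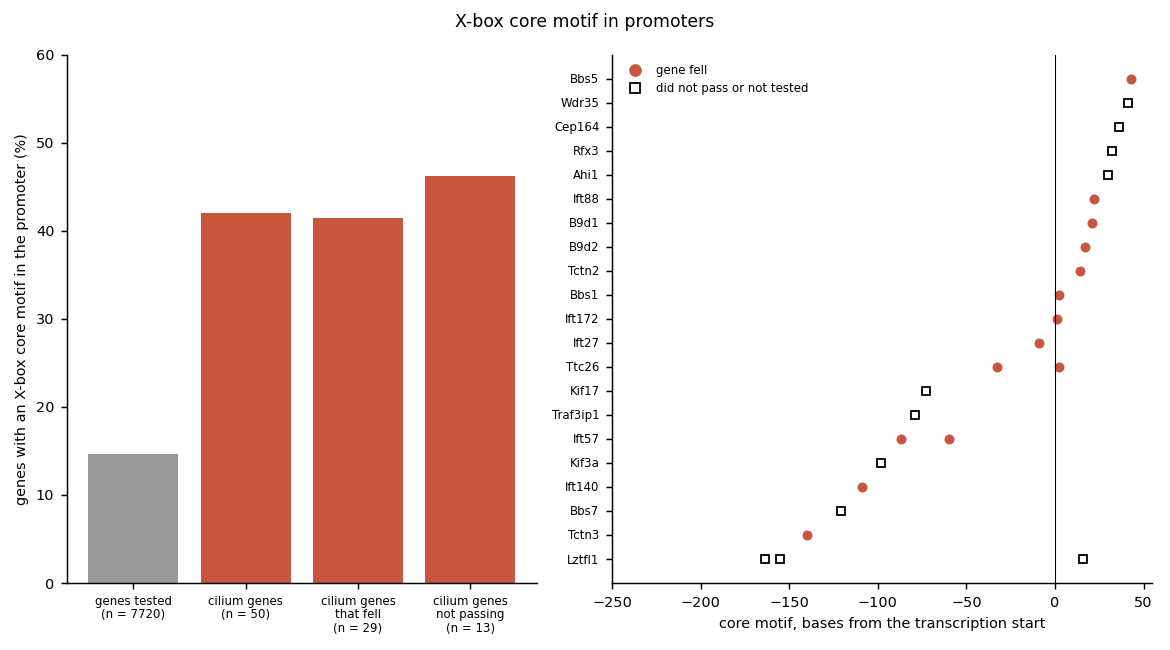
Left, the share of genes (%) with an X-box core motif in the 300-base promoter, for all genes tested (14.6%), the 50 cilium genes with a promoter entry (42.0%), those that fell (41.4%) and those tested that did not pass (46.2%). Right, the position of each core in the 21 cilium promoters that held one, in bases from the transcription start, with filled circles for genes that fell and open squares for the others.

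On the arrays, cilium genes were lower after 5-aza-dC and none was called higher. Values were log2 levels from the bead signals after background correction and quantile normalisation, averaged over the 2 technical arrays of each replicate, and the log2 fold change is 5-aza-dC minus control. A probe counted as detected at a detection p under 0.05, and a gene needed a probe detected on 2 or more of the 8 arrays to be tested. The word "fell" or "rose" marks an adjusted p under 0.05 in a limma fit of 2 replicates against 2 over all 9502 genes tested. Of the 57 cilium genes 47 were tested. Of these, 33 fell (70.2%, against 25.7% of all genes tested), 0 rose (against 26.3%) and 14 did not pass. At an unadjusted p under 0.05, for which the share of all genes was not counted, 35 cilium genes were lower and 0 higher. Their log2 fold changes had a median of -0.67 (-0.58 once undetected probes were set at their bound), while the median of all genes tested was -0.02, and 43 of them were below 0 (51.4% of all genes tested were). Both treated replicates lay below both controls in 42 of the 47 genes (38.8% of all genes tested did so), Rfx3 alone lay above (as 37.7% of all genes tested did), and Traf3ip1, Mkks, Ttc8 and Bbs4 overlapped. In 10 genes the fall was at least 2-fold, which 7.98% of all genes tested also reached, and in the other 23 the measured fall was smaller. In bulk RNA, fewer cells of a kind and less RNA per cell cannot be told apart.

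Most of these genes were detected throughout. The probe was detected on all 8 arrays in 40 of the 47 genes, and 29 of these fell. In 4 genes, Ift57, Ttc30a1, Ift74 and Bbs1, only the control arrays reached the 2 detections of the filter, and all 4 are counted among those that fell. In 2, Traf3ip1 and Rfx3, only the treated arrays reached it with the probe used. The other 10 genes, Ift46, Ttc30b, Wdr19, Wdr35, Kif17, Lztfl1, Cep290, Tmem67, Ofd1 and Ttbk2, were undetected on every array and have no value.

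**Figure D2:**
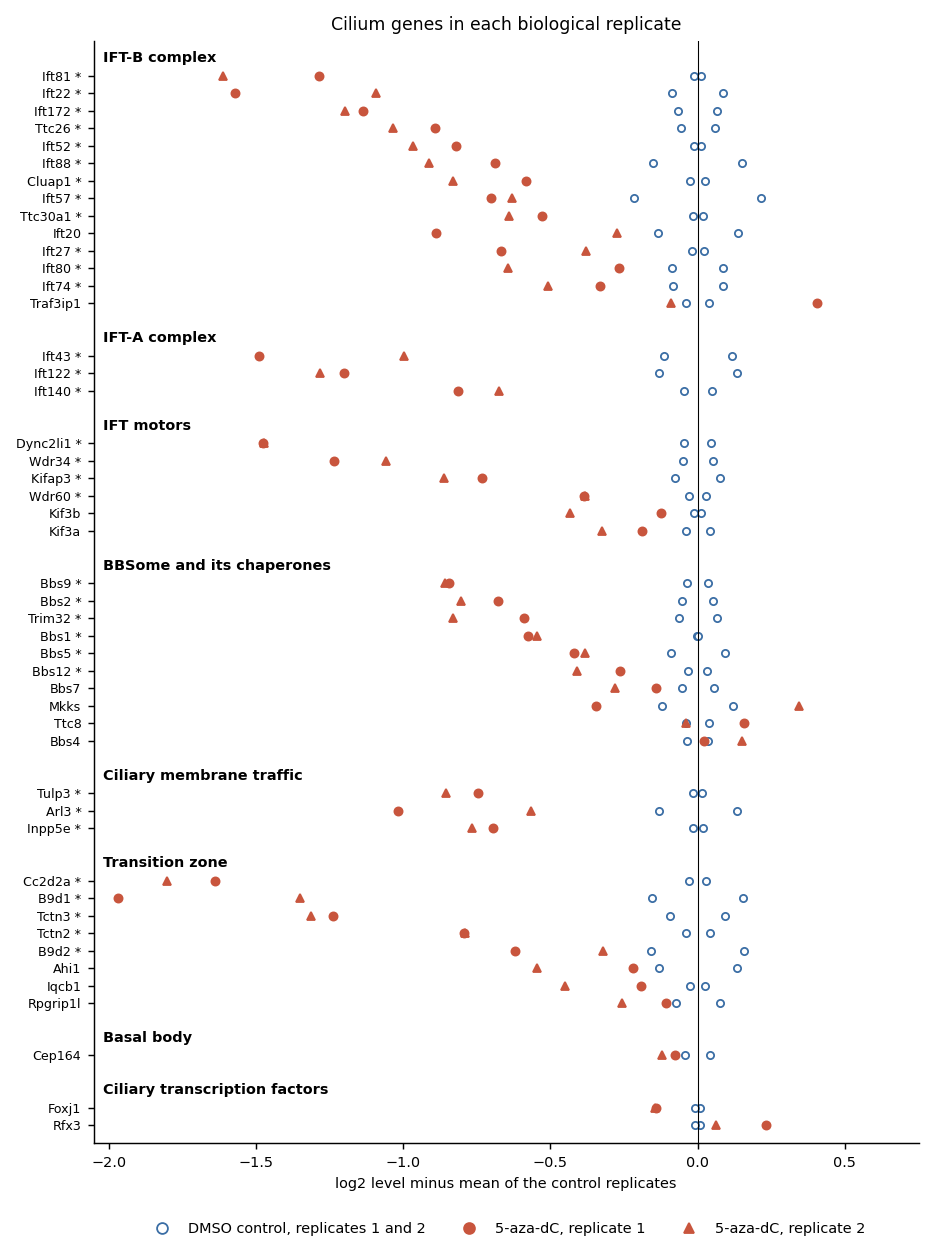
Log2 level of each of the 47 cilium genes tested in each biological replicate, minus the mean of the control replicates, grouped by role and sorted within a role by log2 fold change (open circles, DMSO control; filled circles and triangles, 5-aza-dC replicates 1 and 2). Genes with an asterisk fell (33 of 47), and the treated replicates lie left of both controls in 42 genes.

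**Figure D3:**
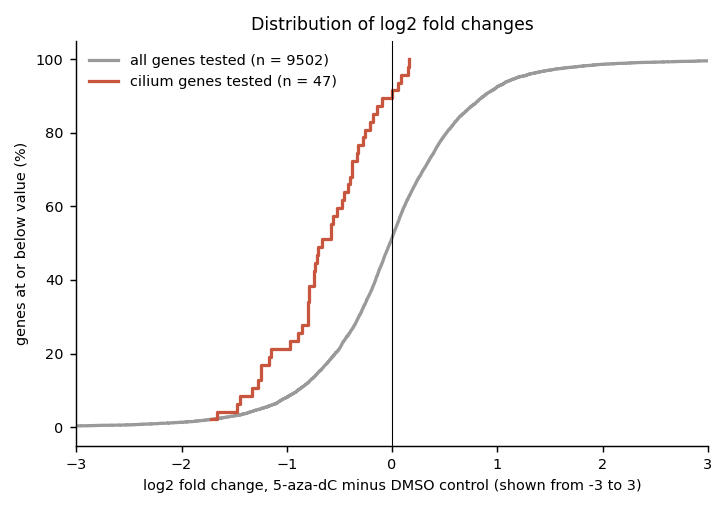
Cumulative share (%) of genes at or below each log2 fold change, for the 47 cilium genes tested and all 9502 genes tested. The cilium genes run from -1.72 to 0.16 with a median of -0.67, and the median of all genes is -0.02; the axis is drawn from -3 to 3 and leaves out more extreme genes of the whole array.

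Among IFT-B subunits, 12 of 14 tested fell and the median log2 fold change was -0.69. Ift81, which binds tubulin together with Ift74, stood at 9.44 and 9.41 in the control replicates and at 8.14 and 7.82 after 5-aza-dC. The fall of Ift81 was 2.73-fold (log2 fold change -1.45 ± 0.14, SE, as for all fold changes here). Ift22, a small GTPase of the core, was 7.70 and 7.53 in controls and 6.05 and 6.53 after treatment, 2.52-fold lower (-1.33 ± 0.18). The groups did not overlap in either gene, but the treated replicates of Ift22 lay 0.48 apart. Ift172, a large peripheral subunit, went from 9.29 and 9.43 to 8.22 and 8.16 and fell 2.25-fold (-1.17 ± 0.11). Ift88, the core subunit without which mouse cells do not build cilia, went from 6.77 and 7.07 to 6.23 and 6.01, a fall of 1.74-fold (-0.80 ± 0.15). All of the treated replicates of Ift172 and Ift88 were below every control.

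Of the other IFT-B genes tested, 8 fell. The log2 fold changes were -0.96 for Ttc26 (Ift56), -0.89 for Ift52, -0.71 for Cluap1 (Ift38), -0.52 for the small GTPase Ift27 and -0.46 for Ift80. Ift80 passed narrowly (limma adjusted p = 0.0497), and its call was lost with no detection filter and with no variance trend. Ttc30a1 was lower by a log2 fold change of -0.58. Ttc30b is a paralogue of it, and whether the Ttc30a1 probe also reads paralogues was not analysed here. The Ttc30a1 probe was detected on the 4 control arrays but on only 1 of the 4 treated arrays, so its treated level was near background. The probes of Ift57 and Ift74 were undetected on every treated array, so that only a bound holds, with each treated array raised to its lowest level of any detected probe: Ift57 was at least 1.36-fold lower and Ift74 at least 1.16-fold lower. Ift20, which also works at the Golgi in sorting cargo for the cilium, did not pass. Its values were 11.46 and 11.19 in controls and 10.43 and 11.05 after treatment, and the wide gap between the treated replicates gave a log2 fold change of -0.58 ± 0.23. Traf3ip1 (Ift54) was undetected on the 4 control arrays and on 2 of the 4 treated arrays, and its treated replicates lay on either side of the controls (0.16 ± 0.17).

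All 3 IFT-A subunits tested fell, with a median of -1.24. Ift43, a peripheral subunit, went from 10.05 and 9.82 to 8.45 and 8.94, a fall of 2.37-fold (-1.24 ± 0.19). Ift122, a core subunit, went from 6.80 and 7.07 to 5.73 and 5.65, a fall of 2.36-fold (-1.24 ± 0.13). Ift140, the other core subunit measured, changed by -0.74 ± 0.11. The treated replicates of Ift43 lay 0.49 apart, while those of Ift122 lay 0.08 apart.

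Of the 6 motor genes tested 4 fell, with a median of -0.59. Of the retrograde motor dynein-2, 3 subunits were tested and all fell. Dync2li1, the light intermediate chain, was 8.75 and 8.66 in controls and 7.23 in both treated replicates, a fall of 2.78-fold (-1.47 ± 0.10). Wdr34, an intermediate chain, went from 8.10 and 8.0 to 6.82 and 6.99, a fall of 2.21-fold (-1.15 ± 0.11). Wdr60, the other intermediate chain, fell by less (-0.38 ± 0.10).

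Of the anterograde motor kinesin-2, the accessory subunit fell and the motor chains did not pass with the probes used. Kifap3, which links the motor to its cargo, went from 9.28 and 9.43 to 8.63 and 8.50, a fall of 1.74-fold (-0.80 ± 0.12). Kif3a was 9.16 and 9.08 in controls and 8.93 and 8.79 after treatment (-0.26 ± 0.11), and did not pass. A second probe of Kif3a gave -0.61 ± 0.14, which passed in a limma fit over all kept probes (adjusted p = 0.012). Kif3b was 5.91 and 5.89 in controls and 5.77 and 5.47 after treatment (-0.28 ± 0.13). In both motor chains the treated replicates lay below the controls. Kif3a also fell with the mean of its probes (-0.43, adjusted p = 0.022), with median scaling (0.037), with arrays entered singly (0.025), without 5-aza-dC replicate 1 (0.040) and with a crossed pairing (0.037), and over the other settings its adjusted p ran from 0.097 to 0.51. The difference between the fold changes of Kifap3 and Kif3a was not tested, and the motor chains also serve transport outside the cilium.

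Of the BBSome, its chaperones and Trim32, 6 of 10 genes tested fell and the median was -0.37. Bbs9 (-0.85), Bbs2 (-0.74) and Bbs5 (-0.40), subunits of the complex, fell, and so did Bbs12 (-0.34), one of the chaperonin-like proteins that assemble it. Bbs1 was undetected on every treated array and at least 1.14-fold lower. Trim32 (Bbs11), an E3 ubiquitin ligase, went from 10.22 and 10.35 to 9.70 and 9.45, a fall of 1.63-fold (-0.71 ± 0.13, adjusted p = 0.0069). Without control replicate 2 the call of Trim32 was lost (adjusted p = 0.070). Bbs7 did not pass (-0.21 ± 0.11).

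The other 3 genes of the group did not pass, and their replicates overlapped between conditions. Bbs4, a BBSome subunit that binds pericentriolar satellites, was 8.12 and 8.06 in controls and 8.11 and 8.24 after treatment (0.09 ± 0.11; the sign turned to -0.026 when arrays were scaled to their medians). Ttc8 (Bbs8) stood at 7.42 and 7.50 in controls and 7.62 and 7.42 after treatment. The chaperonin-like Mkks (Bbs6) was 8.19 and 7.95 in controls and 7.72 and 8.41 after treatment, which puts the treated replicates on either side of both controls.

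The 3 genes of ciliary membrane traffic all fell. Arl3, the GTPase that releases lipidated proteins inside the cilium, went from 10.44 and 10.17 to 9.29 and 9.74, a fall of 1.73-fold (-0.79 ± 0.19, adjusted p = 0.015). The call of Arl3 was lost without control replicate 1 (adjusted p = 0.086). Tulp3, which brings receptors into the cilium with IFT-A, changed by -0.80 ± 0.10, and Inpp5e, a phosphoinositide phosphatase of the ciliary membrane, by -0.73 ± 0.10.

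In the transition zone 5 of 8 genes tested fell, with a median of -0.63, and the lowest fold changes of all 47 genes were here. Cc2d2a was 9.08 and 9.03 in controls and 7.42 and 7.25 after treatment, a fall of 3.29-fold (-1.72 ± 0.11). B9d1 was 9.26 and 8.95 in controls and 7.13 and 7.75 after treatment, a fall of 3.16-fold (-1.66 ± 0.22). Tctn3 went from 7.85 and 8.04 to 6.70 and 6.63, a fall of 2.42-fold (-1.28 ± 0.11). These 3 genes, with Tctn2 (-0.79 ± 0.10) and B9d2 (-0.47 ± 0.16), encode components of the MKS complex, named after Meckel syndrome. The complex forms part of the membrane barrier. Not all of it was measured, as Tmem67 was undetected and Mks1 and Tctn1 had no paired probe. B9d2 passed narrowly (limma adjusted p = 0.0497). Its call was lost with the deposited values, an offset of 50, no detection filter and no variance trend.

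The other 3 transition zone genes tested did not pass. Iqcb1 (Nphp5), a partner of Cep290, was 9.11 and 9.16 in controls and 8.95 and 8.69 after treatment (-0.32 ± 0.13). Ahi1, also assigned to the MKS complex, changed by -0.38 ± 0.16 and Rpgrip1l, a scaffold at the base of the zone, by -0.18 ± 0.11. All 3 had both treated replicates below both controls.

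The basal body and transcription factor genes tested did not pass. Cep164, a distal appendage protein needed for docking to the membrane, was detected on 1 control and 1 treated array, with 4.84 and 4.76 in controls and 4.73 and 4.68 after treatment (-0.10 ± 0.09). Foxj1 was detected on all 8 arrays, at 5.42 and 5.41 in controls and 5.27 in both treated replicates (-0.14 ± 0.09). The probe used for Rfx3 was undetected on the 4 control arrays and detected on 2 of the 4 treated arrays, while over all 4 of its probes the gene was detected on 3 arrays, a control among them. Rfx3 stood at 4.54 and 4.53 against 4.77 and 4.60 (0.15 ± 0.10; without the detection filter the sign turned, to -0.17).

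Genes with several probes showed how far the value depends on the probe. Of 13 genes with more than 1 kept probe, all probes were called lower in 7, some in 4 and none in 2 (Mkks and Ttc8), and 0 probes were called higher. The 3 probes of Ift81 ran from -1.59 to -1.45 and those of Ift172 from -1.17 to -1.0, so that each gene was measured alike. The probes of Tctn3 ran from -1.28 to -0.26 and those of Tctn2 from -1.40 to -0.79. Which transcripts these probes read was not analysed here.

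**Figure D4:**
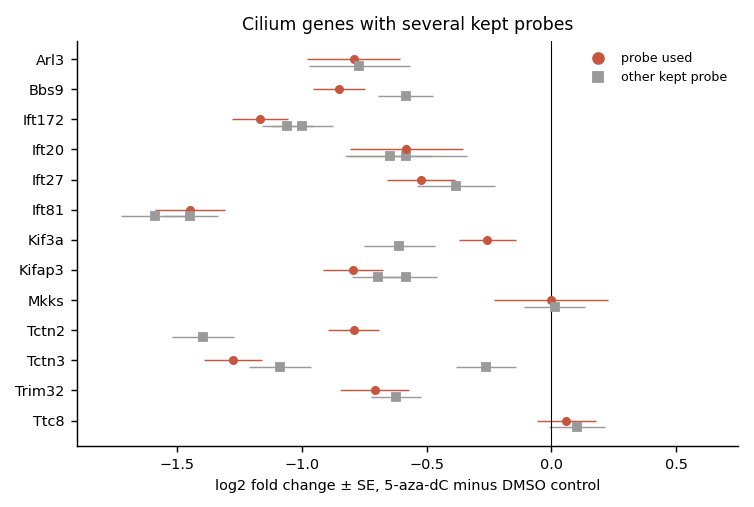
Log2 fold change (5-aza-dC minus DMSO control) with its SE for each kept probe of the 13 cilium genes with several, with circles for the probe used (the brightest) and squares for the others. Probes of Ift81 and Ift172 lie close together, while those of Tctn3 (-1.28 to -0.26) and Kif3a (-0.61 and -0.26) lie apart.

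The treated replicates differed from each other more than the controls did. Over the 47 genes the median absolute difference between replicates was 0.15 for 5-aza-dC and 0.095 for control. The treated difference was above 0.4 in 7 genes: Ift22, Ift20, Ift43, Mkks, Arl3 and B9d1 were higher in replicate 2 and Traf3ip1 was lower. Among controls only Ift57 differed by that much. Technical arrays of a replicate differed by a median of 0.07 and by at most 0.41.

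Of the 33 genes that fell, 22 passed under each of 14 other ways of processing or leaving out samples. The share of all genes called lower that did so was not counted. The 22 cilium genes were Ift81, Ift22, Ift172, Ttc26, Ift52, Ift88, Cluap1, Ttc30a1, Ift43, Ift122, Ift140, Dync2li1, Wdr34, Kifap3, Bbs9, Bbs2, Tulp3, Inpp5e, Cc2d2a, B9d1, Tctn3 and Tctn2. Among them, Ttc30a1 was detected on only 1 treated array. The number that fell was 23 without control replicate 1, when Arl3, B9d2, Bbs1, Bbs12, Bbs5, Ift27, Ift57, Ift74, Ift80 and Wdr60 no longer passed or could not be tested. It was 27 without control replicate 2, when Bbs12, Bbs5, Ift27, Ift80, Trim32 and Wdr60 no longer passed. Without 5-aza-dC replicate 1, Mkks rose, B9d2 no longer passed, and Ahi1, Iqcb1, Kif3a and Kif3b passed as lower. Without 5-aza-dC replicate 2, Traf3ip1 rose, Bbs12 and Ift80 no longer passed, and Ift20 and Mkks fell. Ift20 was -0.27 (adjusted p = 0.15) without the first and -0.89 (adjusted p = 0.00018) without the second, and Mkks was 0.34 (0.044) and -0.34 (0.040).

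**Figure D5:**
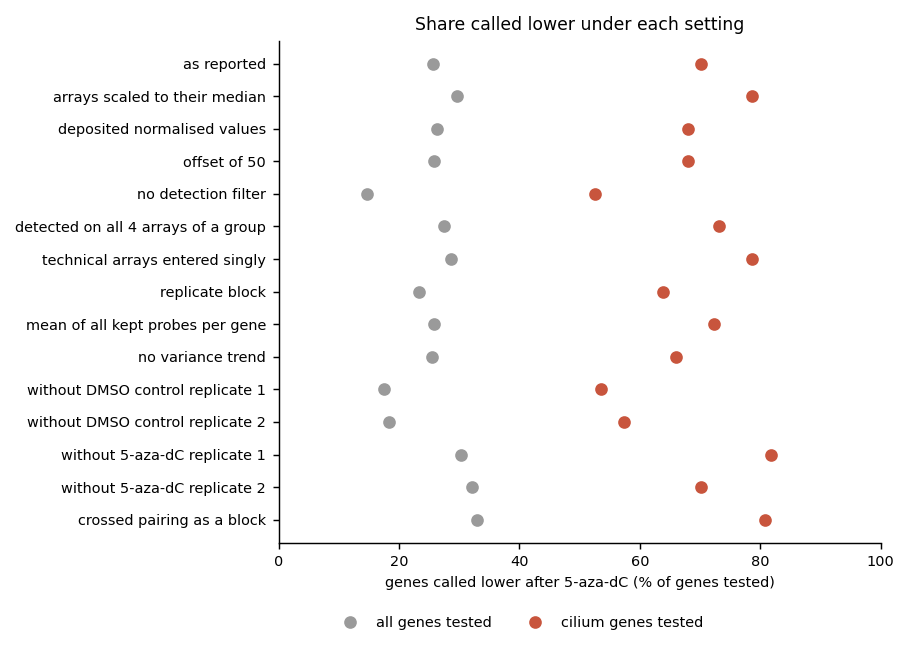
Share of genes called lower (% of genes tested) for the cilium genes and for all genes tested, as reported (70.2% and 25.7%) and under 14 other settings. The cilium genes range from 52.6% without a detection filter to 81.8% without 5-aza-dC replicate 1, and all genes from 14.6% to 32.9%.

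Other genes of the cilium and its base were read from the same fit as lists by role, which were also drawn up with earlier results of these data known. Of 25 further transition zone and basal body genes tested 12 fell (48.0%, against 25.7% of all genes) and 0 rose, with a median log2 fold change of -0.35. The lowest were Tmem17, a further component of the MKS complex (-1.53 ± 0.10, limma adjusted p = 0.00018), Cep41, a centrosomal protein needed for tubulin glutamylation in cilia (-1.37 ± 0.12, adjusted p = 0.00047), and Kiz, a centrosomal protein (-1.21 ± 0.12, adjusted p = 0.00066). The other Tmem genes of this list, Tmem216 (-0.48 ± 0.22), Tmem107 (-0.44 ± 0.23), Tmem138 (-0.23 ± 0.14) and Tmem237 (0.10 ± 0.10), did not pass. Of these, Tmem216, Tmem107 and Tmem237 are also assigned to the MKS complex, so not every measured component of it fell. Of 11 ciliary membrane and signalling genes tested 3 fell (27.3%, near the 25.7% of all genes) and 1 rose, with a median of -0.17. Pkd1 (polycystin-1) changed by -0.90 ± 0.11, Evc, a Hedgehog regulator at the ciliary base, by -0.50 ± 0.10 and the vesicle GTPase Rab8a by -0.49 ± 0.12, while Unc119b, which carries myristoylated cargo, rose by 0.44 ± 0.13.

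Genes that act in taking the cilium apart were read as a list of their own. Of 9 genes of cilium disassembly and centriole capping tested, 4 rose and 2 fell (22.2%), with a median of 0.32. Over all genes tested 26.3% rose and 25.7% fell, shares against which these small lists and the ones that follow are to be read. Cep97, which caps centrioles with Ccp110, rose by 1.11 ± 0.14, the mitotic kinase Aurka, which also drives disassembly, by 0.93 ± 0.14 and Plk1 by 0.66 ± 0.11. Plk4 rose as well (0.61 ± 0.10). Tchp (-0.45 ± 0.14) and Hdac6 (-0.44 ± 0.10) fell, while Kdm3a, Kif2a and Ccp110 did not pass, so the list went both ways. Aurka and Plk1 are also cell cycle genes, and the share of dividing cells was not measured. Of 6 tubulin modification enzymes tested 2 rose (Tpgs2, 0.96 ± 0.11, and Ttll4, 0.85 ± 0.14) and 1 fell (Tpgs1, -0.76 ± 0.13). Tpgs1 and Tpgs2 are subunits of the same polyglutamylase complex.

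Among 6 other RFX and ciliary transcription regulators tested, 3 rose and 1 fell. Rfx1, an X-box binding factor of many tissues, was 8.86 and 8.94 in controls and 8.20 and 8.14 after treatment (-0.73 ± 0.10, limma adjusted p = 0.0023). Rfx2 rose by 0.63 ± 0.17 from 5.25 and 4.75, values near background. Ccno, a regulator of centriole production in multiciliated cells, was undetected in controls and at least 1.64-fold higher after treatment.

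Markers of other cells were read beside these results. Of 21 multiciliated cell markers on the array 15 were undetected on all 8 arrays, Dnah5, Hydin, Ccdc39, Tekt1 and Rsph1 among them. Of the 5 tested, Rsph9 (at least 2.09-fold lower) and Tppp3 (-0.46) fell and Mns1 (0.85) rose. All 11 fibroblast markers on the array were detected in controls, and 10 of them after treatment, where Lum was undetected. Of the 11, 8 fell and 1 rose (Thy1, 0.42), with a median of -2.38 and the lowest values in Col3a1 (-4.50), Postn (-3.22) and Dcn (-2.80). Their summed linear level ranged from 35929 to 42173 in controls and from 17217 to 20249 after treatment. Of 9 epithelial markers on the array 5 rose of 7 tested and 0 fell, their sum going from 214 to 215 in controls to 1680 to 1744 after treatment, with Krt5 and Esrp1 undetected. Krt8 (at least 27.8-fold), Krt14 (at least 11.7-fold) and Krt18 (at least 7.39-fold) changed most. The summed level of the 57 cilium genes was 16894 to 17748 in controls and 10058 to 10937 after treatment. Each of these sums counts undetected genes too and keeps the offset of 16 in every level. The epithelial sum in controls is therefore near background, with Krt8, Krt14, Krt18, Grhl2 and Cldn4 undetected there. Of macrophage markers, Ptprc, Adgre1 and Lyz2 were undetected and Cd14 rose (0.87), and 0 of 5 endothelial markers passed the detection filter. The part of these marker shifts in the result for the cilium genes was not tested.

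Over the whole series, 12841 to 13595 of 25697 probes were detected per array, with a mean signal of 295 to 376. Across kept probes, single technical arrays of a replicate correlated at 0.997 to 0.998 and single arrays of different groups at 0.919 to 0.930. The replicates correlated at 0.997 in control and 0.989 in 5-aza-dC. Those 2 values are over gene levels after technical arrays were averaged, so they are not on the same scale. The call rate was high throughout the array: 2444 genes were called lower and 2497 higher, 52.0% of those tested. Trp53 had no probe in the table used and its loss could not be read from the arrays.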

How the data were processed

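Total RNA of DMSO control and 5-aza-dC treated MEFs was measured on Illumina bead arrays. Per the file headers, the deposited file of non-normalised values gives each array's bead signal as a linear intensity with its detection p-value. For the deposited normalised intensity, the authors used lumi with background subtraction, a variance-stabilising transformation and robust spline normalisation, and served as an alternative. No source used here gives the version of lumi. The labels give a 5-aza-dC dose that is not the one of the study's methods, and which holds was not settled. Columns that matched no sample numbered 0.

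Signals were processed with R 4.3.3, limma 3.58.1 and version 1.17.8 of data.table. The function neqc corrected the background with negative controls taken by inference from detection p-values, normalised by quantiles and took log2 with an offset of 16. Of 25697 probes 14308 were kept (detection p under 0.05 on at least 2 of 8 arrays), and each of 9502 genes was tested by its brightest kept probe. Symbols came from the probe table and RefSeq, by Entrez identifier for 23962 probes, by accession for 9 and by the symbol as given for 7, while 1719 were unlisted. Technical arrays were averaged and 2 replicates compared with 2 by moderated two-sided tests with a variance trend (residual degrees of freedom 2, prior 3.82, median SE 0.12), adjusted by Benjamini-Hochberg over all genes at 0.05. The number of arrays limits the precision.

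The members, the further gene lists and the marker lists were chosen with earlier results of these data known. Values by replicate were given for members past the threshold with a log2 fold change of at least 1 in size, the member of each role with the highest mean level, and a fixed set (Rfx3, Foxj1, Kif3a, Kif3b, Kifap3, Ift88 and Bbs4), to which Ttc8 and Mkks were added after their values were seen. In other lists the up to 3 genes with the largest change past the threshold were named. Unc119b and Thy1, as the only genes of their lists that rose, and examples of undetected markers were added after their values were seen. So were the remaining disassembly genes and the further Tmem genes that did not pass. Alternatives were median scaling, the deposited values, an offset of 50, other detection filters, arrays entered singly, the replicate number as a block, the mean of probes, no variance trend and each replicate left out. One promoter window is not reported here.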

Additional observations from a re-analysis of the deposited data

How the results depend on the processing

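Over 14 alternatives, of which 13 were planned, no setting with both replicates of each group called a cilium gene higher. The number that fell was 37 of 47 with arrays scaled to their median, where 29.6% of all genes tested fell. It was 32 of 47 with the deposited values (26.3% of all genes) and with an offset of 50 (25.7%). No detection filter gave 30 of 57 (14.6%), and detection on all 4 arrays of a group 30 of 41 (27.5%). With technical arrays entered singly 37 of 47 fell (28.7%). The mean of probes gave 34 of 47 (25.8%), and no variance trend 31 of 47 (25.4%). Leaving out 1 replicate gave 23 to 36 lower, 0 to 1 higher and a median log2 fold change of -0.69 to -0.65. In those fits the lone sample of a group was assumed to vary like the others. The median moved by more than the spread between replicates with the deposited values (-0.49), an offset of 50 (-0.50), no detection filter (-0.47), the stricter filter (-0.73) and control replicate 1 left out (-0.69). A larger offset compresses fold changes of dim probes, and each filter changes which genes are counted. Bbs4 turned to -0.026 (adjusted p = 0.864) with median scaling and Rfx3 to -0.17 (adjusted p = 0.294) without the filter. Both were uncalled in either fit.

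With the replicate number as a replicate block, 30 of 47 cilium genes fell, and Bbs12, Bbs5 and Wdr60 were lost. In that fit 2208 genes, 23.2% of all genes tested, were called lower. The numbers were not shown to pair the samples: deviations of same-numbered samples correlated at -0.63. Crossed numbers as a block, added after seeing the data, gave 38 of 47 lower (against 32.9% of all genes) and 0 higher.

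Signal over background limits the dimmest genes: 10 were undetected everywhere, and Ift57, Bbs1 and Ift74 have only bounds. Ttc30a1 was detected on only 1 treated array.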
